A study of Arabidopsis thaliana with 7 samples.

Results

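The genes that decide whether a root epidermal cell of Arabidopsis makes a hair were examined in RNA-seq data of Col-0 and cepd roots. The 10 genes were given as a list of AT identifiers by their known roles, and all of them were found among the 32833 genes of the count tables. They comprise the R2R3 MYB gene WEREWOLF (WER), the bHLH genes GLABRA3 (GL3) and ENHANCER OF GLABRA3 (EGL3), the WD40 gene TRANSPARENT TESTA GLABRA1 (TTG1) and the homeobox gene GLABRA2 (GL2). The other members are the R3 MYB genes CAPRICE (CPC), TRIPTYCHON (TRY) and ENHANCER OF TRY AND CPC1 (ETC1), the receptor-like kinase gene SCRAMBLED (SCM, listed by RefSeq as SUB) and the zinc finger gene JACKDAW (JKD). In cepd, ETC1 transcripts fell to 0.603 of the Col-0 level, whereas no other member differed at an adjusted p under 0.05 in the fit without pairing. This was 1 member of 10, where 8.3% of all genes tested were lower, and the call was lost in 4 of 15 alternative analyses. With libraries paired by replicate number, GL3 was also lower, in a fit that called 2727 of 20600 genes lower against 1710 without pairing. GL2, the output gene of the patterning circuit, was at 21.6 ± 2.00 CPM in Col-0 (counts scaled to library size; SD, n = 3) and 22.7 ± 1.92 CPM in cepd (SD, n = 4).

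Root RNA was compared between Col-0, with 3 libraries numbered 1, 3 and 4, and cepd, with 4 libraries numbered 1 to 4. Col-0 is the wild type, and cepd is the roxy6,7,8,9 mutant in the Col-0 background, in which the glutaredoxin-like proteins ROXY6, ROXY7, ROXY8 and ROXY9 (the CEPDs) are lost. The alleles were made with CRISPR/Cas9, combined in a single quadruple mutant by crossing, and freed of the editing construct. Both genotypes had spent 7 d on full nutrition medium (FN; 2 mM KNO3, 1 mM NH4NO3 and 1 mM glutamine) and then 2 d on low N medium (LN; 0.1 mM KNO3 and 50 µM NH4NO3). Each library held whole roots of 50 seedlings from 5 plates in 1 of 4 independent experiments. The study had left out a further Col-0 library that contained leaf tissue. Because whole roots were extracted, fewer cells of a type and less RNA per cell cannot be told apart.

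In the root epidermis, WER forms a complex with GL3 or EGL3 and TTG1 that activates GL2 in cells which stay hairless. The same complex switches on genes of the R3 MYB group such as CPC, whose small proteins lack an activation domain, and CPC is known to move into neighbouring cells, where it takes the place of WER in the complex. In those cells GL2 stays off, the bHLH gene RHD6 is no longer repressed, and a hair is made. SCM in the epidermis and JKD, which acts from the cortex, tell a cell whether it lies over the cleft between cortical cells, which is the position of hair cells.

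The libraries held between 30758339 and 46611731 counts, and 20600 genes passed the expression filter, all 10 members among them. Transcripts of ROXY6, ROXY7 and ROXY8 were still counted in cepd. ROXY6 had 5.64 ± 0.376 CPM in Col-0 (SD, n = 3) and 3.77 ± 0.753 CPM in cepd (SD, n = 4), with a log2FC of -0.57 (adjusted p = 0.0323, edgeR). ROXY7 and ROXY8 were at most at 2.57 CPM in any library, and ROXY9 had at most 1 count in any library of either genotype. Genome editing can leave a transcript in place, so these values do not check the genotype labels. Leaf markers differed between the genotypes. Of 6 listed, 5 were tested, and of these 3 (RBCS1A, LHCB1-3 and LHCB2-1) were higher in cepd and 0 lower. Among all genes tested, 9.64% were higher and 8.3% lower. The summed level of the leaf markers was 93.2 to 132 CPM in Col-0 against 250.3 to 374 CPM in cepd. The study also reports photosynthesis among the terms enriched in root genes that CEPDs repress. GL1, the MYB partner of GL3 in leaf trichomes, had no count in any library, which allows at most 0.0955 CPM (3 counts in the smallest library). The part of leaf RNA in the results given here was not tested. Of 8 markers of other root tissues, WOL, a cytokinin receptor gene of the stele, was higher (log2FC 0.42, adjusted p = 0.0241 with edgeR), a call lost in 5 of 15 alternative analyses (adjusted p up to 0.183). The other 7 were not called. At an unadjusted p under 0.05, the endodermis markers CASP1 and MYB36 were lower in cepd with edgeR and limma-voom, and CASP1 alone with DESeq2. The protoderm marker PDF1 was at 118 ± 13.6 CPM (SD, n = 3) in the wild type and 122 ± 20.1 CPM (SD, n = 4) in cepd.

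Of the 10 patterning genes, 1 was lower in cepd at an adjusted p under 0.05 (Benjamini-Hochberg over all genes tested, edgeR quasi-likelihood test), whereas 8.3% of all genes tested were lower at this threshold. None was higher, against 9.64% of all genes tested. At an unadjusted p under 0.05, 2 members were lower (ETC1 and GL3) and 0 were higher, and DESeq2 and limma-voom gave the same counts as edgeR at the adjusted threshold. No member passed an absolute log2FC of 1 in addition, which 4.38% of all genes tested did. The libraries of the genotypes did not overlap for 1 member on the lower side and for 1 on the higher side, against 13.8% and 15.3% of all genes tested. The median log2FC of the members was 0.03, that of all genes tested was 0.01, and the median size of the log2FC regardless of sign was 0.09 for the members and 0.16 for all genes. Summed over the members, transcript levels ranged from 178 to 201 CPM in Col-0 and from 187 to 197 CPM in cepd.

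**Figure D1:**
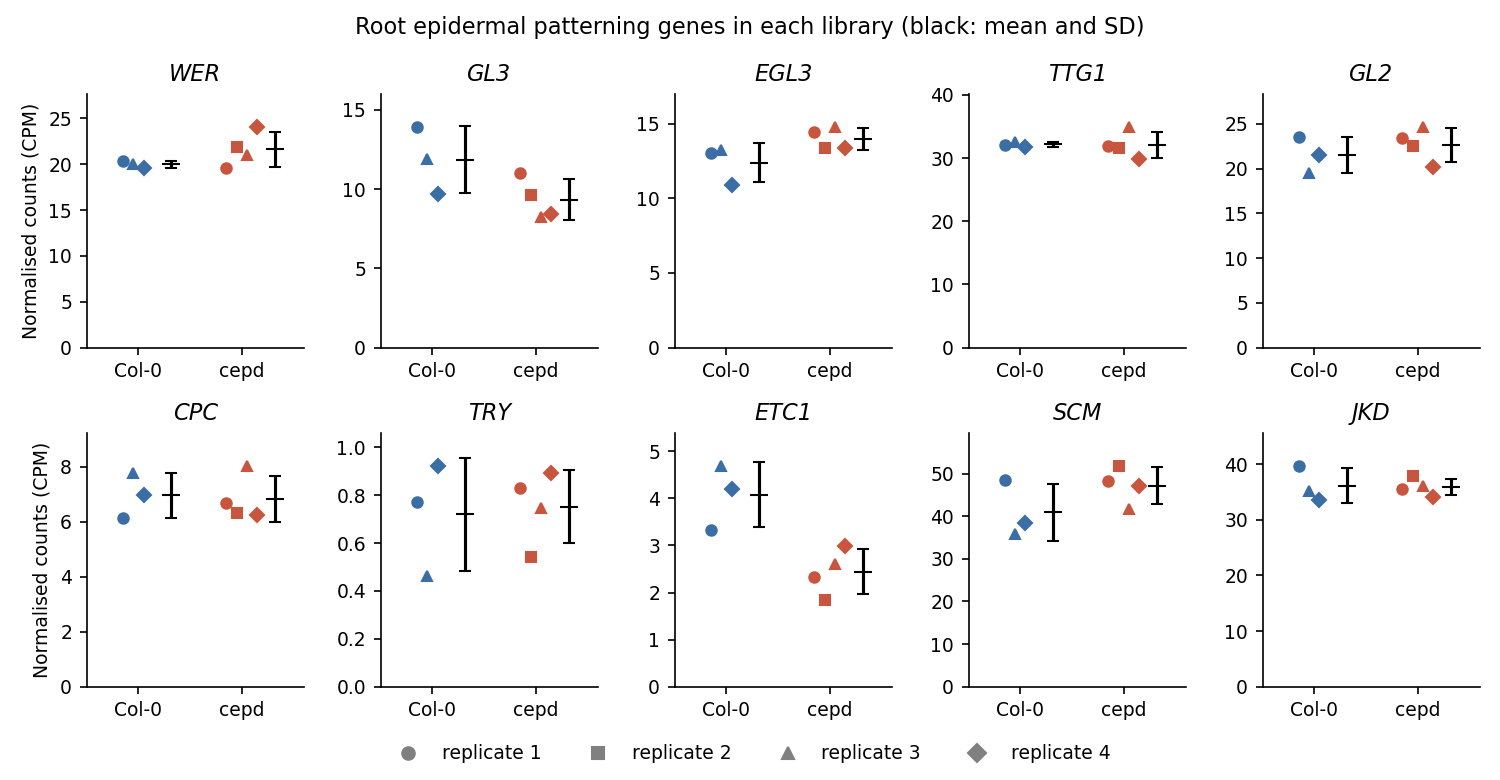
Normalised counts (CPM, linear axes from 0) of the 10 patterning genes in each library, with Col-0 in blue and cepd in red, symbols for the replicate number, and black bars for the mean and SD (n = 3 and n = 4). The cepd libraries of ETC1 (1.85 to 2.99 CPM) lie below all Col-0 libraries (3.33 to 4.70 CPM), and those of EGL3 lie above, while the libraries of the other 8 genes overlap between the genotypes.

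The R3 MYB genes act as inhibitors of the hairless fate. ETC1 (AT1G01380, chr1:147043-148014, plus strand) was at 3.33, 4.70 and 4.19 CPM in Col-0 (replicates 1, 3 and 4, the order used throughout). The cepd libraries (replicates 1 to 4) were at 2.33, 1.85, 2.6 and 2.99 CPM. All 4 cepd libraries were lower than the lowest Col-0 library, and within the pairs of replicates 1, 3 and 4 the cepd library was lower by 0.51, 0.84 and 0.48 on the log2 scale. The log2FC was -0.73 with a standard error of 0.18 and a 95% confidence interval from -1.13 to -0.33, which corresponds to 0.603 of the Col-0 level with an interval from 0.457 to 0.796 (adjusted p = 0.0205, edgeR). These values rest on 838 counts over the 7 libraries, between 58 and 173 in each. The call depended on single libraries: the adjusted p of edgeR was 0.0927 when replicate 3 of Col-0 was left out, 0.0643 when its replicate 4 was, and 0.0515 when replicate 1 of cepd was. Leaving out both cepd libraries with the highest sums of leaf markers (replicates 1 and 2) gave a log2FC of -0.55 and an adjusted p of 0.137 (edgeR). The cepd libraries kept still had leaf marker sums of 268 and 250 CPM, above the 93.2 to 132 CPM of Col-0. With fewer libraries, the genes called lower over all genes also fell, from 1710 to 726. The reason for the lost call was not tested.

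CPC (AT2G46410, chr2:19049021-19050369, minus strand), the best known mobile inhibitor, did not share this difference. It had 6.16, 7.76 and 6.96 CPM in Col-0 against 6.68, 6.34, 8.05 and 6.26 CPM in cepd, so that the genotypes overlapped, and the log2FC was -0.02 (95% confidence interval -0.30 to 0.25, adjusted p = 0.914, edgeR). The sign of this value differed in 5 of 15 alternative analyses. TRY (AT5G53200, chr5:21582614-21584243, plus strand), which acts mainly in trichome spacing, was scarce, with 198 counts in all and 0.719 ± 0.236 CPM in Col-0 (SD, n = 3) against 0.753 ± 0.153 CPM in cepd (SD, n = 4). At this depth its log2FC of 0.07 had an interval from -0.55 to 0.69, so a difference of the size of that of ETC1 in the same direction lay outside the interval, but smaller ones were not detectable.

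The share of ETC1 among the R3 MYB transcripts that were tested (CPC, TRY, ETC1 and ETC3, in CPM per kb of exon) was 29.7%, 32.8% and 31.7% in Col-0. In cepd it was 21.0%, 18.6%, 20.0% and 26.4%, below Col-0 in every library. CPC made up 60.3% ± 1.29 of the pool in Col-0 (SD, n = 3) and 67.5% ± 4.03 in cepd (SD, n = 4), and the sum of the pool was 15.1 ± 1.83 and 13.3 ± 1.47 CPM per kb. The log2 ratio of ETC1 to CPC counts within a library was -0.78 ± 0.09 in Col-0 and -1.49 ± 0.30 in cepd. This share and this ratio were looked at after the values of the genes were known and were not tested.

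The genes of the activating complex were considered next. GL3 (AT5G41315, chr5:16529090-16533287, plus strand) had 13.9, 11.9 and 9.71 in Col-0 and 11.02, 9.65, 8.22 and 8.41 CPM in cepd. Its genotypes overlapped, because Col-0 replicate 4 lay below cepd replicate 1, and the log2FC was -0.35 (standard error 0.14, interval -0.67 to -0.03, unadjusted p = 0.0346, adjusted p = 0.123, edgeR). Within the pairs of replicates 1, 3 and 4, GL3 was lower in cepd by 0.34, 0.53 and 0.21 on the log2 scale. When the replicate number entered the fit as a block, the log2FC was -0.36 and passed the threshold (adjusted p = 0.0163, edgeR). In that fit 2 of the 10 members were lower, and so were 2727 of the 20600 genes tested, against 1710 without the block. The labels do not tie the replicate number to an experiment, and the pairing rests on the correlation of same-numbered libraries. For Col-0 replicate 3 this correlation (0.189) was slightly below that with cepd replicate 4 (0.192). GL3 was called in no other of 15 alternative analyses (adjusted p from 0.0163 to 0.261).

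EGL3 (AT1G63650, chr1:23599413-23603164, plus strand), which is largely redundant with GL3, had 13.01, 13.2 and 10.9 CPM in Col-0 against 14.5, 13.4, 14.8 and 13.3 CPM in cepd. All cepd libraries of EGL3 were above all Col-0 libraries, by a small margin, and the log2FC of 0.18 did not pass the threshold (standard error 0.09, interval -0.02 to 0.38, adjusted p = 0.207, edgeR). The log2 ratio of GL3 to EGL3 counts was -0.07 ± 0.15 in Col-0 (SD, n = 3) and -0.59 ± 0.20 in cepd (SD, n = 4), a description chosen after the values had been seen and not tested.

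The other parts of the complex were measured more precisely. WER (AT5G14750, chr5:4763372-4764834, minus strand), the MYB that binds the GL2 promoter, had 20.4, 20.0 and 19.6 CPM in Col-0 against 19.5, 21.9, 21.1 and 24.1 CPM in cepd. The genotypes overlapped, since cepd replicate 1 lay below every Col-0 library and the others above, and the log2FC was 0.11 (interval -0.07 to 0.30, adjusted p = 0.373, edgeR). TTG1 (AT5G24520, chr5:8370317-8372847, minus strand), the scaffold of the complex, was at 32.2 ± 0.371 CPM in Col-0 (SD, n = 3) and 32.1 ± 2.12 CPM in cepd (SD, n = 4), a log2FC of 0.00 with an interval from -0.16 to 0.16.

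GL2 (AT1G79840, chr1:30036956-30041440, plus strand) encodes the homeodomain protein that represses hair genes and is used as the marker of hairless cells. It had 23.6, 19.6 and 21.6 in Col-0 and 23.4, 22.5, 24.7 and 20.1 CPM in cepd. The libraries overlapped, and the log2FC was 0.07 (standard error 0.09, adjusted p = 0.622, edgeR) with an interval from -0.13 to 0.28, which leaves out a decrease or an increase of the size seen for ETC1. GL2 was called in none of 15 alternative analyses (log2FC 0.01 to 0.14). Among genes with at least 1 CPM, those whose log2 CPM followed GL2 most closely over the 7 libraries were RUG3, PLDBETA2 and AT1G09220, with root mean square differences of 0.034, 0.038 and 0.039. For ETC1 they were AT1G13500, AT3G18560 and TIM23-3, with 0.081, 0.101 and 0.102. These are the smallest differences of a search over all such genes, and GL2 itself varied little between libraries. Shared regulation was not tested.

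Neither gene that gives positional information was called. SCM (AT1G11130, chr1:3722708-3727450, plus strand) had 48.4, 35.8 and 38.5 CPM in Col-0 against 48.3, 51.8, 41.6 and 47.0 CPM in cepd. Col-0 replicate 1 stood within the range of cepd, the other Col-0 libraries were below it, and the log2FC of 0.21 had an interval from -0.05 to 0.46 (adjusted p = 0.245, edgeR). Without Col-0 replicate 1, the log2FC of SCM was 0.34 and passed the threshold (adjusted p = 0.0302, edgeR). JKD (AT5G03150, chr5:745421-749028, plus strand) was at 36.2 ± 3.20 CPM in Col-0 (SD, n = 3) and 35.9 ± 1.51 CPM in cepd (SD, n = 4), with a log2FC of -0.01 and an interval from -0.18 to 0.16.

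To compare the members with each other, levels were divided by exon length. In Col-0, TTG1 was highest (17.1 CPM per kb), followed by WER (15.9), JKD (15.8), SCM (13.4), CPC (9.13), GL2 (6.73), ETC1 (4.77), EGL3 (4.73), GL3 (4.39) and TRY (0.797 CPM per kb). The libraries of WER and JKD, of JKD and SCM, of ETC1 and EGL3 and of EGL3 and GL3 overlapped, so these neighbours were not ordered beyond their spread. In cepd, WER, TTG1, JKD and SCM (17.2 to 15.5 CPM per kb) overlapped from each to the next, and GL2, EGL3 and GL3 stood at 7.08, 5.35 and 3.45 CPM per kb. ETC1, level with the bHLH genes in Col-0, was at 2.86 CPM per kb in cepd, where its libraries overlapped with those of GL3 but not with those of EGL3.

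**Figure D2:**
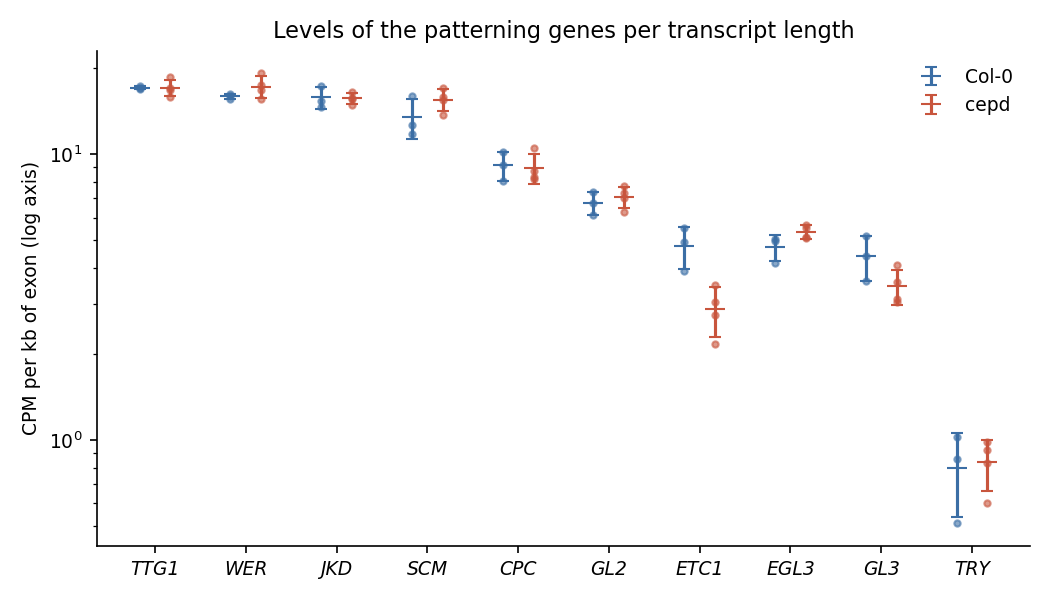
Levels of the 10 patterning genes in CPM per kb of exon (log axis) in Col-0 (blue) and cepd (red), ordered by the Col-0 mean, with points for libraries and bars for the mean and SD (n = 3 and n = 4). TTG1, WER, JKD and SCM lie between 13.4 and 17.2 CPM per kb on average, TRY lies below 1 in both genotypes, and ETC1 moves from 4.77 to 2.86 CPM per kb.

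The study assigns CEPD effects to TGA factors, which bind TGACG, so the 250 bases before the annotated start of each gene were read from the RefSeq TAIR10.1 genome and searched for TGACG and TACGTA on both strands. TGACG was found for 2 of 10 members, GL3 and ETC1, and in 19.3% of 20049 windows of the same length before tested protein-coding genes. The windows of ETC1 and GL3 are printed 5′ to 3′ with the match in capitals (TGACG, or CGTCA where it lies on the other strand). Each stands beside that of its closest relative among the members, CPC and EGL3, which hold no match within 250 bases. ETC1 is from chr1:146793-147042 (plus strand), CPC from chr2:19050370-19050619 (minus strand), GL3 from chr5:16528840-16529089 (plus strand) and EGL3 from chr1:23599163-23599412 (plus strand).
ETC1: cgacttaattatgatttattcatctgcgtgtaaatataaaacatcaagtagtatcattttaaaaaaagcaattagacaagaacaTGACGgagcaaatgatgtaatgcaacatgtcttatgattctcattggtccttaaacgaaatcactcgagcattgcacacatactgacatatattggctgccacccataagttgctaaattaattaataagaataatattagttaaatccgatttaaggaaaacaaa
CPC: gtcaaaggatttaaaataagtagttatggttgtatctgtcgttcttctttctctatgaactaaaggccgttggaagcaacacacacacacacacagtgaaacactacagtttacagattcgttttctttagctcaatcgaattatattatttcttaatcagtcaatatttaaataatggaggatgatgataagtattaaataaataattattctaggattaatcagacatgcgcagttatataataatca
GL3: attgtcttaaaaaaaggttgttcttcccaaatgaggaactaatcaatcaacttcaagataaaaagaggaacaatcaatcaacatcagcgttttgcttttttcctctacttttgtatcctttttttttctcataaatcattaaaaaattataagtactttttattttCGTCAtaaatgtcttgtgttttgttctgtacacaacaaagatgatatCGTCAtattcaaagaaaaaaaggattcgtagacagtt
EGL3: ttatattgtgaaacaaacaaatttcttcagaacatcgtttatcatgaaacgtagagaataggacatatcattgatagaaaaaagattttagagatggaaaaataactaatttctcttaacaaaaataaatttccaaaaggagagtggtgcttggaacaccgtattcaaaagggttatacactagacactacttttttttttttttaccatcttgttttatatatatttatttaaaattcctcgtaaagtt
The match of ETC1 begins 166 bases before the gene start, and those of GL3 begin 84 and 37 bases before it. In windows of 1000 bases, 7 of 10 members held TGACG, against 55.2% of the 20049 windows. These were ETC1 and GL3, and also GL2, WER, CPC, TTG1 and TRY, which were called in no analysis. TACGTA was in none of the 250-base windows of the members (4.87% of all windows) and in 3 of 10 windows of 1000 bases (16.2%). These matches describe letters in the windows only.

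Other genes of the patterning pathway were read from a list of 15 further regulators and 5 partners of JKD in the ground tissue. Of these, 17 were tested, 1 was lower in cepd and 0 were higher (edgeR, adjusted p under 0.05), against 8.3% lower and 9.64% higher among all genes tested, and their median log2FC was -0.04. At an unadjusted p under 0.05, 1 was lower (GEM) and 2 were higher (BLJ and NUC), and DESeq2 and limma-voom also called 1 lower and 0 higher. GEM, a modulator of GL2 expression, had 48.3, 53.4 and 51.8 CPM in Col-0 against 39.2, 41.8, 45.7 and 45.0 CPM in cepd, without overlap. Its log2FC was -0.25 (standard error 0.08, adjusted p = 0.0473, edgeR). The call of GEM was lost in 8 of 15 alternative analyses (adjusted p up to 0.319), among them 6 of the 7 that left out a library (adjusted p up to 0.165). NUC, a zinc finger relative of JKD, had a log2FC of 0.21 (adjusted p = 0.0562, edgeR) and cepd libraries above those of Col-0, while its relatives BLJ and MGP had values of 0.24 and -0.15 and SHR, the mobile regulator that JKD binds, had -0.11. TTG2, a WRKY gene activated by the same complex as GL2, had a log2FC of 0.26 (adjusted p = 0.218, edgeR), and MYC1, a bHLH gene related to GL3, had -0.15 (adjusted p = 0.282, edgeR). The R3 MYB gene ETC3 was at 0.295 ± 0.0835 in Col-0 and 0.409 ± 0.0691 CPM in cepd (adjusted p = 0.285, edgeR). ETC2, TCL1 and HDA18 had too few counts to be tested.

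The bHLH genes that act below GL2 in hair cells were mostly lower in cepd. Their list was chosen with earlier results of these data known, so its share of lower genes is no separate evidence. Of 8 tested, 5 were lower and 0 were higher at an adjusted p under 0.05 (6 lower and 0 higher at an unadjusted p; DESeq2 and limma-voom also called 5 and 0), and their median log2FC was -0.56, where 8.3% of all genes tested were lower. RHD6, the first gene of hair initiation and a direct target of GL2 repression, had 37.0, 33.9 and 34.8 CPM in Col-0. In cepd it had 18.6, 18.7, 13.9 and 15.2 CPM, less than in any Col-0 library. The log2FC of RHD6 was -1.09 ± 0.11 (standard error; adjusted p = 0.000244, edgeR). RSL3 fell from 3.58 to 0.763 CPM (log2FC -2.22, adjusted p = 5.61e-05, edgeR). RSL2 and LRL3 fell with log2FC of -0.75 and -0.54 (adjusted p = 0.00318 and 0.00661, edgeR). RSL1, the closest relative of RHD6, was called at the edge of the threshold (log2FC -0.57, adjusted p = 0.04997, edgeR) and not called in 8 of 15 alternative analyses. RSL4, which sets hair length, had 9.49, 8.63 and 8.86 CPM in Col-0 against 7.80, 6.02, 9.01 and 8.88 CPM in cepd, a log2FC of -0.18 with an interval from -0.48 to 0.12 (adjusted p = 0.395, edgeR). Without cepd replicates 1 and 2, 3 genes of this list were called (RHD6, RSL2 and RSL3).

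Genes of hair outgrowth and of the hair wall were lower as well. This list too was chosen with earlier results of these data known, which limits the comparison with all genes in the same way. Of 25 listed and tested, 19 were lower and 0 were higher (19 and 1 at an unadjusted p; DESeq2 called 19 and 0, limma-voom 18 and 0), 8 of them with an absolute log2FC over 1, and the median log2FC was -0.80, against 8.3% lower, 9.64% higher and 4.38% past both thresholds among all genes tested. The summed level of the list was 1870 to 1905 CPM in Col-0 against 1036 to 1138 CPM in cepd. RHS19, a hair-specific peroxidase gene, was at 199 ± 10.2 CPM in Col-0 (SD, n = 3) and 63.2 ± 5.18 CPM in cepd (SD, n = 4), without overlap (log2FC -1.65, adjusted p = 5.91e-06, edgeR). RHS15 had a log2FC of -3.10, PRP3, for a wall protein, of -1.46 and XTH14, for a xyloglucan-modifying enzyme, of -1.37 (adjusted p at most 5.61e-05, edgeR). EXPA7, an expansin gene active in hair cells, fell from 69.8 ± 7.72 CPM (SD, n = 3) to 41.3 ± 5.14 CPM (SD, n = 4), a log2FC of -0.76 (adjusted p = 0.00158, edgeR). Of 7 genes of the meristem and of cell division, 0 were called lower and 0 higher by edgeR, DESeq2 or limma-voom, 0 had an unadjusted p under 0.05, and the log2FC lay between -0.05 and 0.19.

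**Figure D3:**
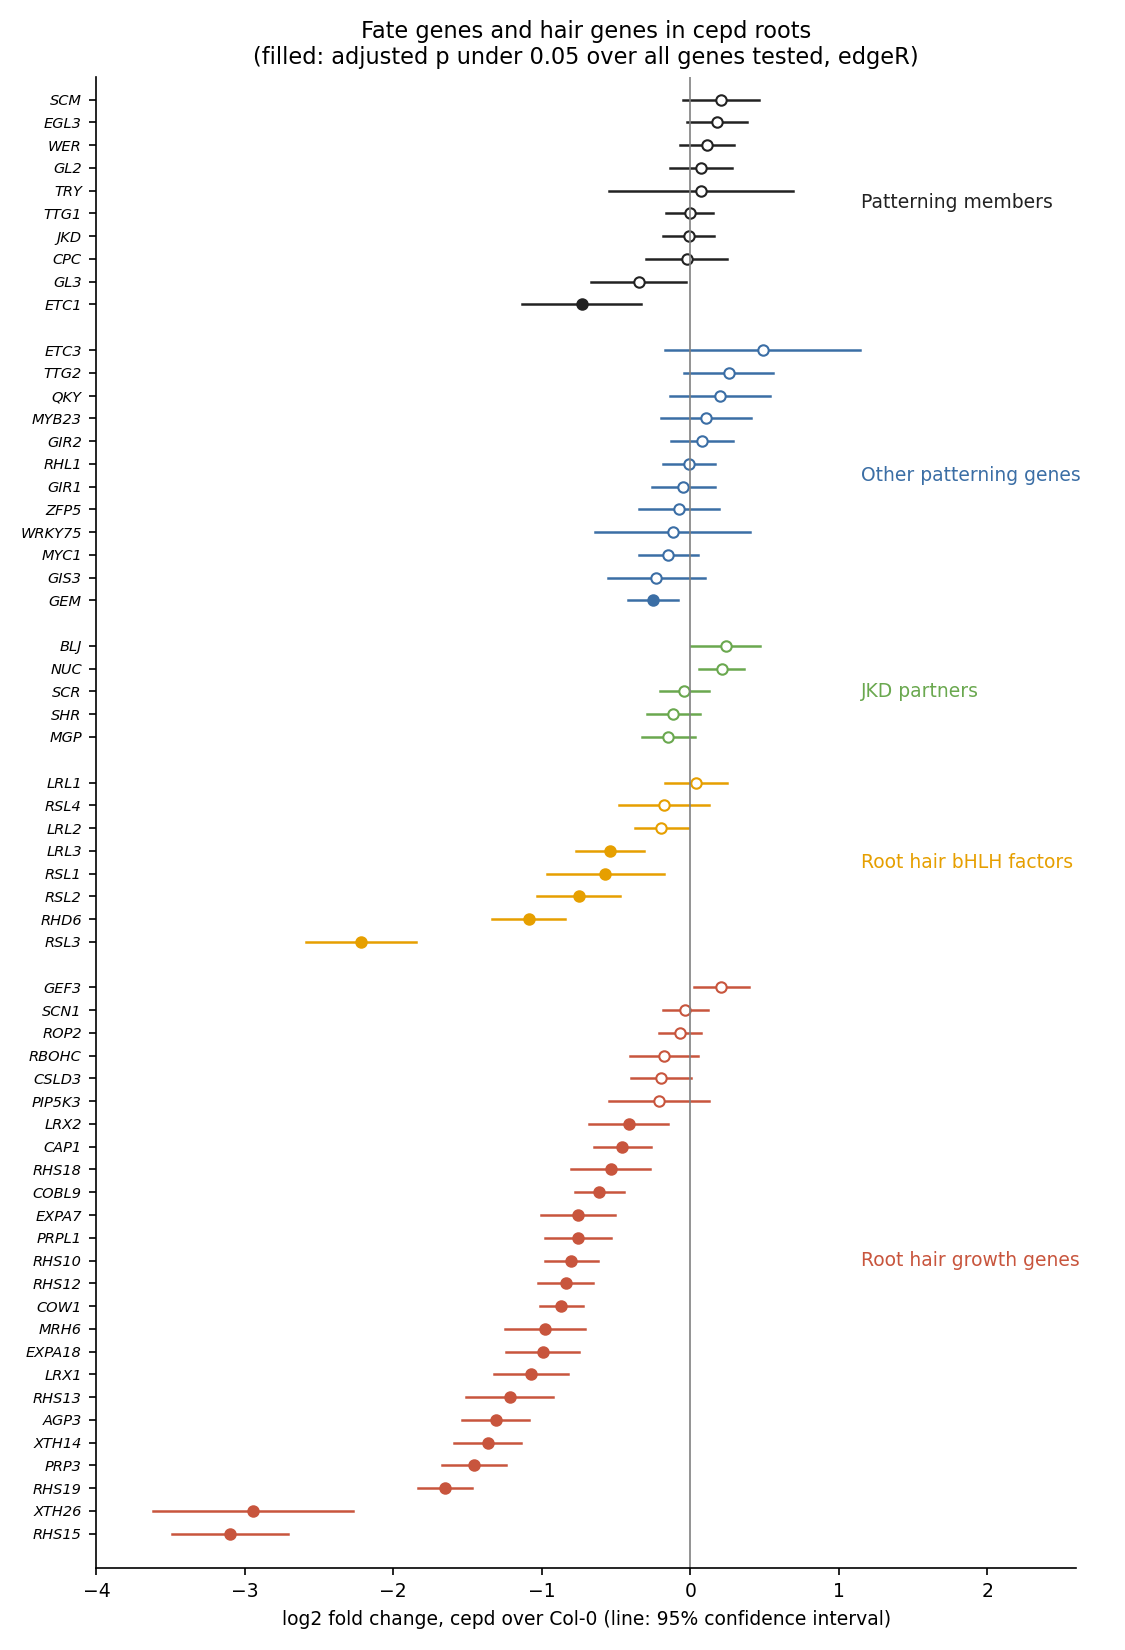
Log2 fold change of cepd over Col-0 with its 95% confidence interval for the tested genes of 5 lists, filled where the adjusted p was under 0.05 over all genes tested (edgeR). The patterning members and their partners lie around 0, with ETC1 at -0.73 and GEM at -0.25 filled, whereas 5 of 8 bHLH genes and 19 of 25 growth genes of root hairs are filled on the negative side. The lists were chosen with earlier results of these data known.

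To set hair genes against fate genes within the same library, 5 log2 ratios of counts were compared by two-sided exact permutation over all 35 assignments of the libraries, where the smallest possible p is 0.0286. GL2 over WER was 0.10 ± 0.12 in Col-0 (SD, n = 3) and 0.07 ± 0.24 in cepd (SD, n = 4), a difference of -0.04 (exact permutation p = 0.857, adjusted over 5 ratios 0.857). CPC over WER was -1.53 ± 0.18 and -1.67 ± 0.25 (exact permutation p = 0.429, adjusted 0.536). Neither ratio of fate genes differed beyond the spread of the libraries. RHD6 over GL2 was 0.65, 0.79 and 0.69 in Col-0 and -0.33, -0.26, -0.83 and -0.41 in cepd. The difference of -1.17 was seen in 4 of 4 cepd libraries, with the smallest p this design allows (exact permutation p = 0.0286), which after adjustment over the 5 ratios was 0.0714. EXPA7 over GL2 was also lower in 4 of 4 cepd libraries, at 1.69 ± 0.20 in Col-0 and 0.86 ± 0.23 in cepd, with the same p values. RHD6 and EXPA7 were already lower in these libraries, while GL2 had a log2FC of 0.07. They also come from lists chosen with earlier results of these data known. The ratios of RHD6 and EXPA7 to GL2 therefore restate the decreases of RHD6 and EXPA7, and their p values are no separate evidence. RSL4 over GL2 was -1.26 ± 0.07 and -1.53 ± 0.30 (exact permutation p = 0.171, adjusted 0.286), and cepd replicate 4 reached the level of Col-0. No ratio passed an adjusted p of 0.05, and the share of altered fate and of altered hair growth in these differences was not tested.

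**Figure D4:**
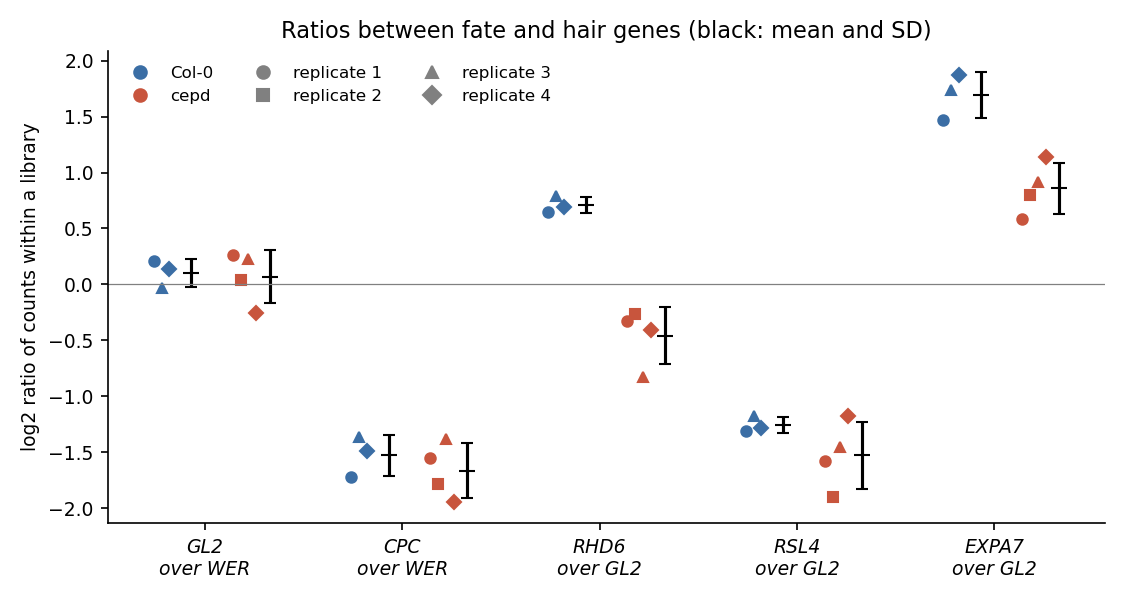
Log2 ratios of counts within each library (Col-0 in blue, cepd in red, symbols for the replicate number, black bars for the mean and SD, n = 3 and n = 4). GL2 over WER and CPC over WER overlap between the genotypes, whereas RHD6 over GL2 (0.71 on average in Col-0, -0.46 in cepd) and EXPA7 over GL2 (1.69 and 0.86) are apart.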

How the data were processed

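RNA-seq counts of 7 Arabidopsis root libraries (3 Col-0, 4 cepd) were analysed. Per gene, the deposited values are raw counts that the authors made from their alignments. The submitters' processing notes name CASAVA 1.8.2, STAR 2.5.2b-2, HTSeq 0.9.1, DESeq2 2.11.40.6 and the TAIR10 build. Counting options are not given in the sources used here, so reads from overlapping genes may be assigned to either or lost (GL2, GL3 and ETC1 share exon bases with other annotated genes), and reads shared by near-identical genes may be split or lost.

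Counts were tested in R 4.3.3 with edgeR 4.0.16 (robust quasi-likelihood test, TMM factors 0.986 to 1.02) after filterByExpr (minimum count 10, minimum total 15), with genotype as the only term and Benjamini-Hochberg correction over 20600 genes. Fold changes are cepd relative to Col-0. CPM were computed with the TMM-scaled library sizes. Standard errors and 95% intervals were derived from the log2FC and the F statistic. Pair differences are of log2 (CPM + 0.05), and ratios are of counts with 0.5 added. The biological coefficient of variation was 11.2%. Exon lengths, gene positions and promoter windows came from the RefSeq TAIR10.1 annotation, in which all 32548 nuclear identifiers were found. Fits were tested on simulated data with known changes. There edgeR called 18 of 50 genes with a true log2FC of 0.5 in size, 46 of 50 with 1, and 17 of 20400 unchanged genes. The changed genes were drawn at random from all genes tested. A missing call alone therefore says little about changes of 0.5 or less, and the 95% interval of a gene gives the range for that gene. Permutation tests used scipy 1.17.1, tables pandas 2.3.3 with numpy 2.4.6, and plots matplotlib 3.10.9, all under Python 3.11.15.

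The members and the gene lists were chosen with earlier results of these data known. Besides the members and the genes of the 5 ratios, up to 4 genes of each list with the smallest adjusted p are named, and for GL2 and ETC1 the 3 genes closest in mean-centred log2 CPM (1 CPM or more on average). Other names (RSL1, the mutated ROXY genes, PDF1, GL1 and genes too low to test) were added after their values were seen.

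The labels give replicates 1, 3 and 4 to both genotypes, and the series' design text names independent experiments without tying them to these numbers. Over genes, the deviations of same-numbered libraries from the mean of their genotype had correlations of 0.435, 0.189 and 0.274. Differently numbered libraries had correlations from -0.371 to 0.192. The highest of these, of Col-0 replicate 3 with cepd replicate 4, was above the 0.189 of the pair of replicate 3. The numbers were taken to pair the libraries on this limited ground, and a fit with the number as a block was run beside the unblocked one. Further alternatives were DESeq2 1.42.0, limma-voom (limma 3.58.1), RLE size factors, no or a stricter filter (1 CPM in 3 libraries), nuclear genes only, another prior count for ratios and leaving out each library. Leaving out cepd replicates 1 and 2 together was added after the data were seen.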

Additional observations from a re-analysis of the deposited data

Results flagged for a closer look

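Of 45 sets of 4 cepd values examined (named genes and ratios), 1 held a library far from the others. ETC3, an R3 MYB gene related to CPC, had 0.38, 0.38, 0.51 and 0.37 CPM in cepd replicates 1 to 4, and the gap of replicate 3 to its nearest neighbour was 0.894 of the range of the 4 values. Chance alone sets such a mark for about 1 in 20 groups, and the Col-0 libraries, 3 in number, could not be examined in this way. In Col-0, ETC3 had 0.21, 0.38 and 0.29 CPM.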

How the results depend on the processing

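Over all genes, edgeR called 1710 lower and 1986 higher. With the replicate number as a block, these counts were 2727 and 2866, and the members called lower rose from 1 to 2, by GL3, while the block changed no other call of a gene named here. DESeq2 gave 2234 and 2118, and limma-voom 1610 and 1949. Leaving out 1 library at a time gave 998 to 2591 lower and 1167 to 2597 higher genes, 0 to 1 members lower and 0 to 1 higher (SCM, without Col-0 replicate 1), 4 to 5 hair bHLH genes lower and 18 to 21 hair growth genes lower. For the other patterning genes it gave 0 to 1 lower and 0 to 3 higher, the 3 being TTG2, NUC and BLJ without Col-0 replicate 1. The added analysis without cepd replicates 1 and 2 gave 726 lower and 784 higher genes, 0 members lower, 3 hair bHLH genes lower, 16 hair growth genes lower and 0 other patterning genes lower. Without the low count filter, 0 other patterning genes were lower (GEM, adjusted p = 0.0558, edgeR). ETC1 was lower in all 15 alternatives, with log2FC from -0.86 to -0.55, and called in 11 of them. GL2, WER, GL3, EGL3 and SCM kept the sign of their log2FC in all 15, whereas that of CPC differed in 5, of TTG1 in 6, of JKD in 2 and of TRY in 2 of 14, none of them called. The 5 ratios passed the adjusted threshold under no alternative, and blocking by pairs allows no p below 0.25. The cause of these shifts was not tested. Among the 10 members, depth limits TRY most (198 counts) and ETC1 next (838 counts).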
